A study of Oryza sativa with 8 samples.

Results

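The genes described here encode the proteins of the cytosolic ribosome in rice (Oryza sativa). They were chosen by annotation, with earlier results of these data known. Rows were taken from a TPM matrix (levels per transcript length, scaled to the same total in every library) where the description names a 60S or a 40S ribosomal protein. Of 57403 rows, 136 met that wording, 80 for the large 60S subunit and 56 for the small 40S subunit. Of these, 126 reached 1 TPM in 2 or more of the 8 libraries, 72 large and 54 small, among 25281 genes tested in all. The 10 genes left out were 3 rows for mitochondrial proteins, 3 for P2, 2 for L44, 1 for S23 and 1 for S7, and 6 of the 10 were at 0 TPM in every library. The wording also missed genes: 88 other tested genes carry the KEGG name of a eukaryotic ribosomal protein without 60S or 40S in their description, so the 126 are a part of the rice set.

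Ribosomes translate messenger RNA, with a small subunit that decodes the message and a large subunit that joins amino acids and carries the exit tunnel for the new chain. In plants nearly every ribosomal protein is encoded by a small family of closely related genes, several of which are transcribed at the same time. A flexible stalk on the large subunit, built from P0 with the acidic proteins P1, P2 and the plant-specific P3, recruits the translation factors. Ribosomal protein transcripts are abundant in growing tissue and are known to be controlled with growth and nutrient signals.

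Whole-plant RNA was sequenced from seedlings of 2 genotypes, each with and without 2-nitroaniline (2-NA), a nitro-substituted aromatic amine. The 4 groups were the ScOYE3-overexpressing transgenic line OE1 with 2-NA, OE1 untreated, the wild type ZH11 with 2-NA, and ZH11 untreated, with 2 libraries in each. All seedlings had grown hydroponically for 2 weeks, 2-NA was given at 0.8 mM for 8 h, and RNA came from pools of 20 plants. OE1 is a single line, the promoter of its transgene is not given in the sources used here, and the transgene itself was not analysed here.

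Libraries held 42.1 M to 56.5 M trimmed reads (M for 1000000), with a mean read length of 145 to 149.8 nt. Replicate 2 of ZH11 with 2-NA stood apart: it had the fewest reads, the lowest GC content (52.04% against 53.51% to 55.43%) and, together with replicate 2 of untreated ZH11, longer reads than the other 6 libraries. The whole-plant label was checked against markers: 21 photosynthesis genes of the shoot summed to 47712 to 64007 TPM and 4 root transporter genes to 339 to 599 TPM, with none at 0 in any library. Whether both pools of a group came from separate treatments is not given in the labels, so p-values cover only sample-to-sample spread, some or all of which may be technical.

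The members were among the most abundant transcripts of the seedlings. Large-subunit genes had a median of 182 TPM (range 6.09 to 1576, mean over the 8 libraries) and small-subunit genes a median of 184.5 TPM (range 11.1 to 616), against 11.6 TPM over all tested genes. Levels of at least 100 TPM were reached by 50 large and 43 small members, and 73 members lay within the 1000 most abundant genes. They were also short, with a median length of 848.5 nt (138 to 1914 nt) against 1601 nt for all tested genes. Of the 126, 125 reached 1 TPM in all 8 libraries.

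The most abundant member was LOC_Os07g33898, a gene for L44, a protein at the tRNA exit site of the large subunit. Its level was 1664 and 2030 TPM in OE1 with 2-NA, 1697 and 1627 TPM in untreated OE1, 1367 and 1110 TPM in ZH11 with 2-NA, and 1451 and 1661 TPM in untreated ZH11. Both treated ZH11 libraries lay below all 6 others. The next large-subunit genes by level were those for the stalk protein P1 (LOC_Os08g02340), for L36 (LOC_Os05g38520) and for L8 (LOC_Os12g38000), the protein beside the peptidyl transferase centre. The L36 gene had 573 and 750 TPM in OE1 with 2-NA, 649 and 642 TPM in untreated OE1, 606 and 306 TPM in ZH11 with 2-NA, and 673 and 809 TPM in untreated ZH11, and its treated ZH11 replicates were far apart. L8 varied little, with 468 and 505 TPM in OE1 with 2-NA, 510 and 488 TPM in untreated OE1, 427 and 436 TPM in ZH11 with 2-NA, and 496 and 422 TPM in untreated ZH11, and its ZH11 groups overlapped.

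Among the small-subunit genes the highest levels belonged to LOC_Os05g39960 (S26, at the mRNA exit channel), LOC_Os02g01560 (S4), LOC_Os03g05980 (S9) and LOC_Os03g31090 (S19). S26 had 610 and 643 TPM in OE1 with 2-NA, 702 and 673 TPM in untreated OE1, 566 and 567 TPM in ZH11 with 2-NA, and 610 and 559 TPM in untreated ZH11. The S26 groups overlapped in ZH11 and did not in OE1. S4 had 439 and 471 TPM in OE1 with 2-NA, 487 and 476 TPM in untreated OE1, 396 and 554 TPM in ZH11 with 2-NA, and 466 and 452 TPM in untreated ZH11, so that the treated ZH11 libraries held both its lowest and its highest value. S19 had 435 and 438 TPM in OE1 with 2-NA, 447 and 448 TPM in untreated OE1, 371 and 429 TPM in ZH11 with 2-NA, and 439 and 378 TPM in untreated ZH11, with overlap in ZH11.

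Grouped by protein, and leaving out 5 genes described below, the members made 29 large-subunit and 23 small-subunit families of 1 to 4 genes, of which 43 had at least 2 genes and 9 had 1. A ribosome holds most of these proteins in equal number, while the summed transcript level per family, on the TPM scale, ran from 7.50 TPM (L13a) to 1986 TPM (L44) in the large subunit, with a median of 564 TPM. In the small subunit it ran from 29.1 TPM (S21) to 816 TPM (S9), with a median of 466 TPM. The low sums cover only the genes that the wording found, so a family can have further genes outside it.

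**Figure D1:**
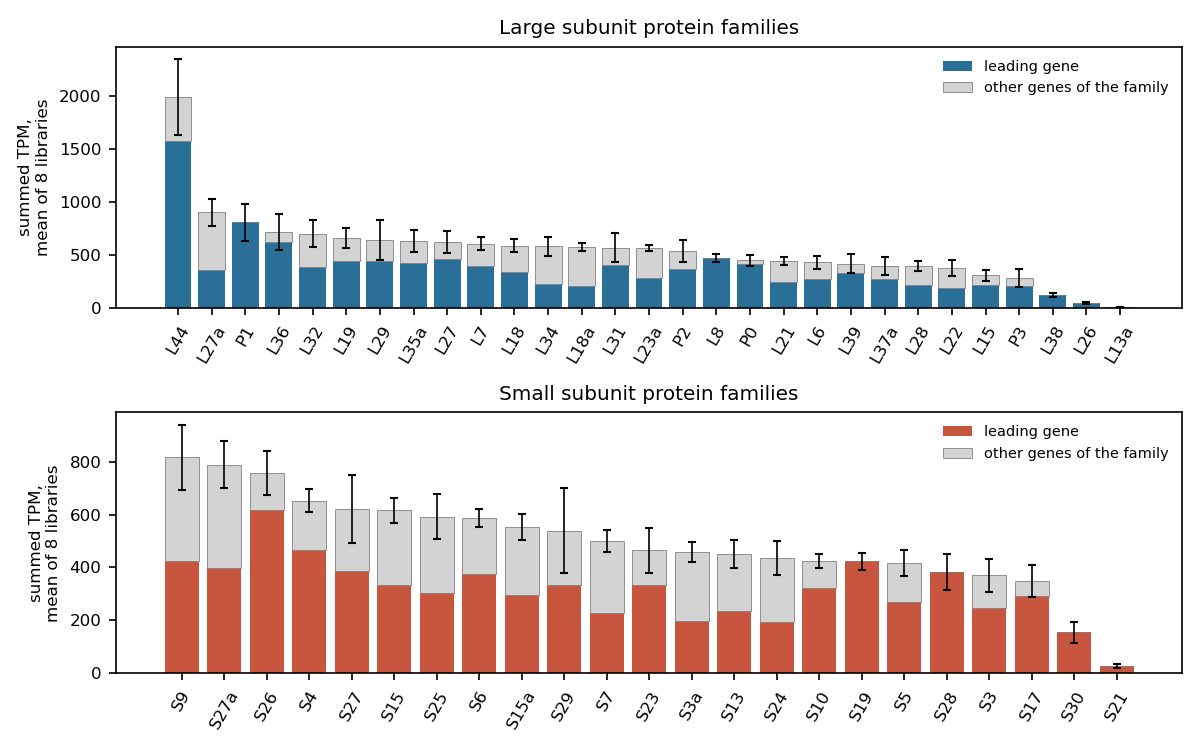
Summed TPM per protein family, as the mean of 8 libraries with the SD over the 8 libraries as error bars, with large-subunit families above and small-subunit families below. The coloured part of each bar is the family's most abundant gene and the grey part its other genes; L44 stands highest at 1986 TPM, and L13a lowest at 7.50 TPM.

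The 5 genes outside these families carry the description of a ribosomal protein but match another protein. Of them, 4 described as L18a (LOC_Os01g14070, LOC_Os01g47680, LOC_Os05g49020 and LOC_Os06g25294) had an L18a-like protein as their best match in the deposited annotation. The remaining gene, LOC_Os05g48422, matched the ribosomal L1 domain-containing protein RSL1D1, which in human is a nucleolar protein. These 5 met the wording and were kept, and without them no median below moved by more than the spread between replicates.

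In OE1 seedlings, the median fold with 2-NA was close to 0 in both subunits, with most members below 0. The 72 large-subunit genes had a median log2 fold of -0.07 (treated minus untreated, on the log2(TPM + 1) scale) and the 54 small-subunit genes one of -0.08, against -0.04 over all tested genes. Values below 0 were found for 52 of 72 large and 46 of 54 small members, against 56.5% of all tested genes. The treated libraries lay below both untreated ones for 22 large and 30 small members, against 28.6% of all tested genes. With an adjusted p under 0.05 (limma with Benjamini-Hochberg adjustment over all 25281 genes) 0 members were called, where 0.241% of all tested genes were. At an unadjusted p under 0.05, 1 large member was higher (LOC_Os01g47680; 5.36% of all tested genes) and 1 small member was lower (LOC_Os03g01900; 4.08%). In bulk samples such as these, fewer cells of a type and less RNA per cell cannot be told apart. Summed TPM of the large subunit was 15872 and 17886 in OE1 with 2-NA, against 17484 and 17336 in untreated OE1. That of the small subunit was 11201 and 12185 TPM in OE1 with 2-NA, against 12357 and 12428 TPM in untreated OE1. The large-subunit groups overlapped. The small-subunit sums were lower in both treated libraries, but the treated replicates lay further apart than the nearest treated and untreated values. The median of the large subunit took the other sign, at 0.01, without replicate 1 of treated OE1.

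With 2-NA, the ribosomal protein genes of ZH11 had lower values in both subunits, and no single gene passed the test. The median log2 fold, treated minus untreated, was -0.42 for the large and -0.35 for the small subunit, against 0.02 over all tested genes. Values below 0 were found for 64 of 72 large and 51 of 54 small members, where 47.6% of all tested genes lay below 0. The 2 treated libraries lay below both untreated ones for 51 large and 41 small members, against 18.4% of all tested genes. By limma 0 members were called at an adjusted p under 0.05, where 0.293% of all tested genes were. At an unadjusted p under 0.05, 32 large and 16 small members were lower and 1 large member (LOC_Os03g54860) was higher, against 7.25% and 5.42% of all tested genes.

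Summed over members, the large subunit made up 14972 and 10844 TPM in ZH11 with 2-NA, against 16735 and 16827 TPM in untreated ZH11. The small subunit made up 10551 and 8628 TPM in ZH11 with 2-NA, against 11741 and 11973 TPM in untreated ZH11. Both treated libraries were below both untreated ones, and replicate 2 lay much further below than replicate 1. Together the members took 2.55% and 1.95% of all TPM in ZH11 with 2-NA, against 2.85% and 2.88% in untreated ZH11. The ratio of large to small summed TPM was 1.26 in the treated replicate 2 and 1.39 to 1.47 in the other 7 libraries.

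Most of the size of this difference came with replicate 2 of treated ZH11. In that library the members' median deviation from their own mean over the 8 libraries was -0.56 for the large and -0.45 for the small subunit, on the log2 scale, against -0.10 and -0.10 in replicate 1. Without replicate 2, the median log2 folds in ZH11 were -0.21 and -0.18, with 0 members called, where 1.16% of all tested genes were. Without replicate 1, they were -0.70 and -0.54, and 56 large and 33 small members were called lower, with the lone treated library assumed to vary like the other groups. In that setting 32.0% of all tested genes were called, 18.6% higher and 13.4% lower, against 0.293% with all 8 libraries. Set side by side by read length, the shorter-read pair (replicate 1 of each group) had medians of -0.20 and -0.18, with 66 of 72 and 50 of 54 members below 0. The longer-read pair (replicate 2 of each group) had medians of -0.69 and -0.54, with 62 of 72 and 48 of 54 members below 0. So the direction of the members' medians was the same in both ZH11 pairs, and the size was not. In OE1, whose libraries all had shorter reads, the replicate 1 pair had medians of -0.13 and -0.15. There 63 of 72 and 52 of 54 members lay below 0, so the ZH11 replicate 1 values were close to those of OE1 replicate 1. The OE1 replicate 2 pair had medians of 0.01 and -0.04, with 33 of 72 and 35 of 54 members below 0. No median or share over all tested genes was computed for these pairs of single libraries, so their counts have no reference value.

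**Figure D2:**
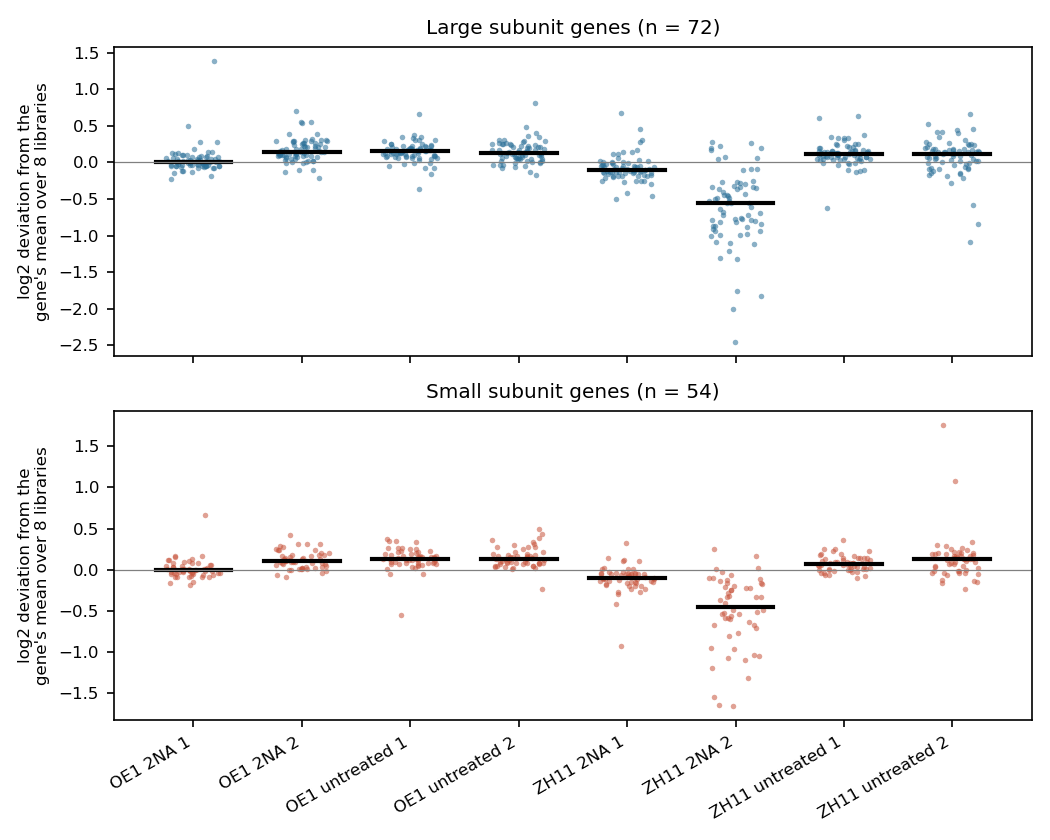
Each point is a ribosomal protein gene, plotted per library as its log2(TPM + 1) minus its mean over the 8 libraries (y axis, log2 units), with 72 large-subunit genes above, 54 small-subunit genes below and black bars at the medians. The medians of replicate 2 of ZH11 with 2-NA lie lowest, at -0.56 and -0.45, with a wide scatter of single genes.

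In that library the values also moved with gene length. Members of up to 500 nt (13 genes) had a median deviation of -0.85, those over 500 and up to 1000 nt (83 genes) one of -0.56, and those over 1000 nt (30 genes) one of -0.33. Over all tested genes the same classes had medians of -0.40, -0.42 and 0.17, so shorter genes in general were low there, and the members' medians were lower still in each class. In replicate 1 the 3 classes of members had medians of -0.05, -0.10 and -0.10, with no such slope. When a smooth curve of deviation against length over all tested genes was taken out of each library, the median folds in ZH11 were -0.25 for the large and -0.20 for the small subunit.

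**Figure D3:**
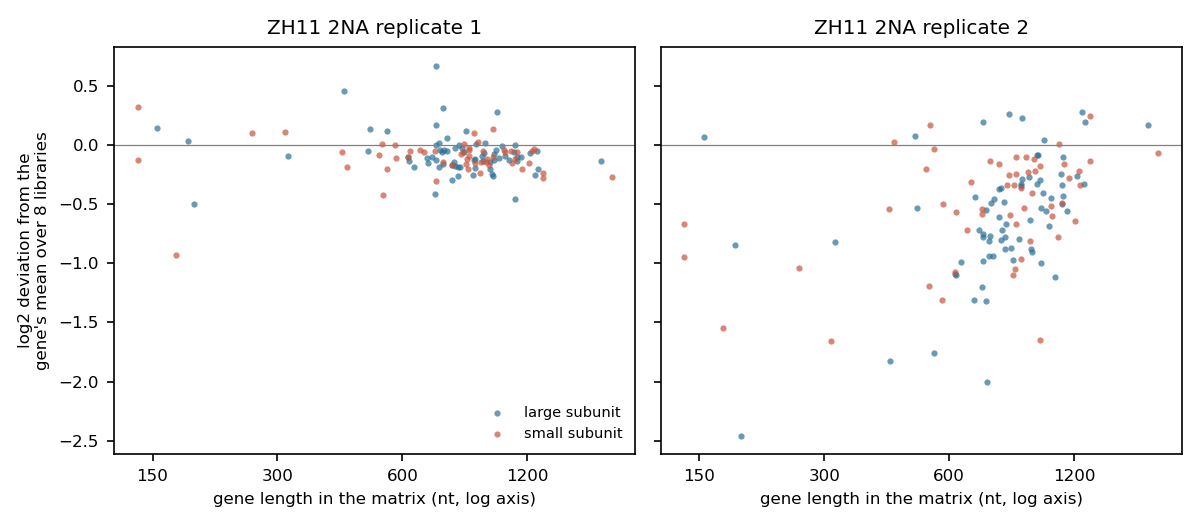
Deviation of each ribosomal protein gene from its own mean over the 8 libraries (y axis, log2 units) against its length in nt (log x axis), for both libraries of ZH11 with 2-NA. In replicate 1 the points form a flat band just under 0. In replicate 2 most lie lower, and genes of up to 500 nt have the lowest class median (-0.85). Some short genes there still lie just above 0, such as LOC_Os06g08320 (154 nt) at 0.07.

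Untreated, the members' median fold between the genotypes was near 0. The median log2 fold, OE1 minus ZH11, was 0.04 for each subunit, against 0.01 over all tested genes, with 45 of 72 and 38 of 54 members above 0, where 51.1% of all tested genes were. The sign turned with the length curve taken out, to -0.0015 for the large and -0.027 for the small subunit, and with a term for read length, to -0.11 and -0.018. The 2 OE1 libraries lay above both ZH11 libraries for 22 large and 20 small members (21.7% of all tested genes) and below them for 10 large and 2 small members (19.6%). By limma 0 members were called at an adjusted p under 0.05, against 0.447% of all tested genes, and at an unadjusted p under 0.05 there was 1 large member lower in OE1 (1.48% of all tested genes), LOC_Os01g51020, described below.

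Under 2-NA, OE1 had higher values than ZH11 across both subunits, again with no gene past the test. The median log2 fold, OE1 minus ZH11, was 0.42 for the large and 0.29 for the small subunit, against -0.03 over all tested genes, and 64 of 72 and 53 of 54 members lay above 0, where 47.3% of all tested genes did. The 2 OE1 libraries lay above both ZH11 libraries for 50 large and 40 small members, against 23% of all tested genes. By limma 0 members were called at an adjusted p under 0.05, where 1% of all tested genes were, and at an unadjusted p under 0.05, 27 large and 12 small members were higher in OE1 (9.83% of all tested genes). This comparison shares its ZH11 libraries with the treatment comparison in ZH11. Without replicate 2 of treated ZH11, which leaves only the shorter-read libraries, the medians were 0.18 and 0.16. Without replicate 1 they were 0.67 and 0.48, with 55 large members called higher, 33 small members called higher and 1 small member, LOC_Os02g01560 for S4, called lower. In that setting 17.1% of all tested genes were called higher and 23.7% lower, against 1% in all with the 8 libraries. With the length curve taken out the medians were 0.21 and 0.09.

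The difference of the treatment effects, OE1 minus ZH11, had a median of 0.41 for the large and 0.22 for the small subunit, against -0.05 over all tested genes, with 63 of 72 and 48 of 54 members above 0 (45.3% of all tested genes). By limma 0 members were called, where 0.0316% of all tested genes were, and at an unadjusted p under 0.05, 8 large and 2 small members (LOC_Os11g41610 and LOC_Os03g26229) were above 0 and 1 large member (LOC_Os03g54860) was below it, against 3.86% and 2.59% of all tested genes. Without replicate 2 of treated ZH11 the medians were 0.15 and 0.10. Without replicate 1 they were 0.64 and 0.36, with 41 large and 20 small members called above 0, in a setting that called 8.51% of all tested genes above 0 and 11.1% below it. With the length curve taken out they were 0.22 and 0.05.

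**Figure D4:**
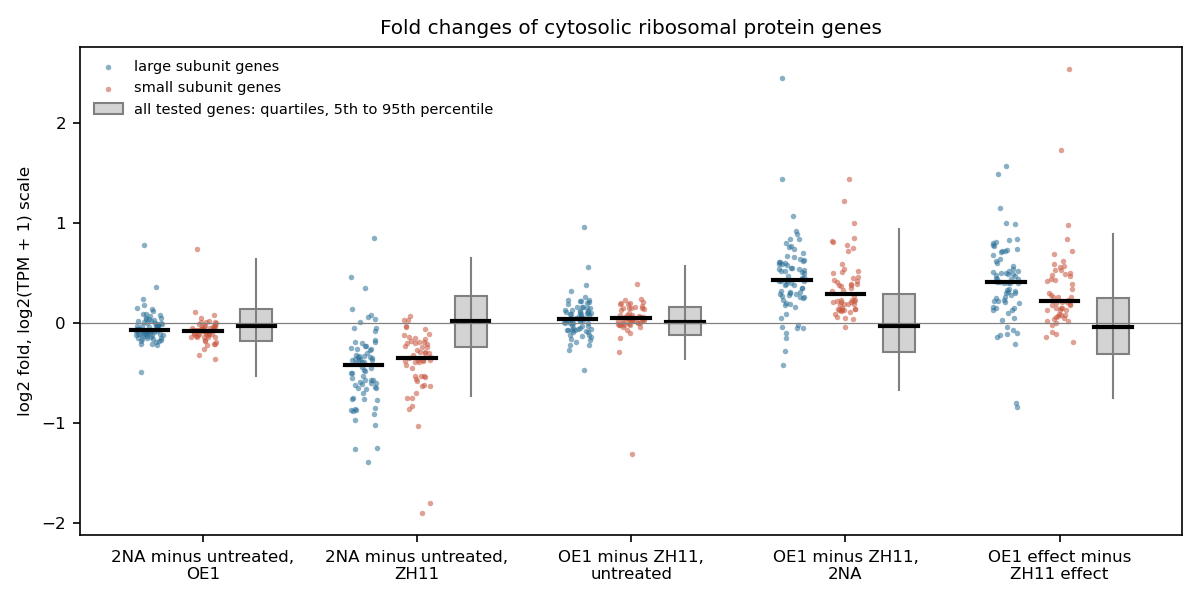
Log2 folds on the log2(TPM + 1) scale (y axis) of 72 large-subunit genes (blue) and 54 small-subunit genes (red) in 5 comparisons, with black bars at medians, beside all 25281 tested genes as grey boxes (quartiles) with lines from the 5th to the 95th percentile. Members lie close to 0 for 2-NA in OE1 (medians -0.07 and -0.08) and mostly below 0 for 2-NA in ZH11 (medians -0.42 and -0.35).

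Replicates of the other groups lay close together. The median absolute log2 difference between replicates over members was 0.14 in OE1 with 2-NA, 0.06 in untreated OE1, 0.48 in ZH11 with 2-NA and 0.13 in untreated ZH11. Over all tested genes it was 0.17, 0.10, 0.45 and 0.20 in the same order. A difference of more than 2-fold between replicates was found for 0, 0, 14 and 3 members in these groups, and the share over all tested genes was not computed. The limma fit took 1 spread per gene from all 8 libraries. So SEs and p-values for OE1 include the wider spread of ZH11 with 2-NA, and those for ZH11 the narrower spread of OE1. Fits on only the 4 libraries compared called 7.46% of all tested genes for 2-NA in OE1 and 0% in ZH11. With all 8 libraries these shares were 0.241% and 0.293%. Across the 8 libraries the median coefficient of variation was 18.6% for large and 13.5% for small members, against 22.3% for all tested genes, and 9.12%, 7.92% and 15.4% without replicate 2 of treated ZH11.

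The small-subunit gene with the lowest adjusted p was LOC_Os11g41610, a gene of 171 nt for S29, a zinc-binding protein of the subunit's head. It had 82.7 and 92.1 TPM in OE1 with 2-NA, 96.96 and 99.5 TPM in untreated OE1, 39.4 and 25.2 TPM in ZH11 with 2-NA, and 90.2 and 161 TPM in untreated ZH11. Both treated ZH11 libraries lay below the other 6. Its log2 fold with 2-NA was -0.17 ± 0.30 in OE1 (SE, limma adjusted p = 1) and -1.90 ± 0.30 in ZH11 (limma adjusted p = 0.0696). Under 2-NA it was 1.44 ± 0.30 higher in OE1 than in ZH11 on the log2 scale (limma adjusted p = 0.0907), and the difference of the treatment effects was 1.73 ± 0.42 (limma adjusted p = 0.448). A term for read length in the fit brought the adjusted p in ZH11 to 0.0491 and called 1.15% of all tested genes.

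The other small-subunit gene with a large fold in ZH11 was LOC_Os03g26229, the least abundant of 4 genes for S9, a protein that binds early in small-subunit assembly. It had 14.7 and 9.02 TPM in OE1 with 2-NA, 5.74 and 7.40 TPM in untreated OE1, 8.19 and 2.14 TPM in ZH11 with 2-NA, and 9.47 and 32.5 TPM in untreated ZH11. The treated libraries were above the untreated ones in OE1 and below them in ZH11, but the replicates of ZH11 differed more than 3-fold from each other in both groups. The log2 fold with 2-NA was 0.74 ± 0.64 in OE1 and -1.80 ± 0.64 in ZH11 (limma adjusted p = 0.937 and 0.328), and untreated OE1 minus untreated ZH11 was -1.32 ± 0.64 (limma adjusted p = 1). The leading S9 gene, LOC_Os03g05980, had 414 and 447 TPM in OE1 with 2-NA, 460 and 471 TPM in untreated OE1, 408 and 294 TPM in ZH11 with 2-NA, and 493 and 409 TPM in untreated ZH11.

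Of the 9 stalk genes, all 6 for P1, P2 and P3 had treated ZH11 libraries below both untreated ones, as had 1 of 3 for P0. Over all members 92 of 126 had this layout, and over all tested genes 18.4%. For 2-NA in ZH11, 0 of the 9 were called by limma at an adjusted p under 0.05, where 0.293% of all tested genes were. The single P1 gene, LOC_Os08g02340, had 861 and 839 TPM in OE1 with 2-NA, 935 and 917 TPM in untreated OE1, 755 and 409 TPM in ZH11 with 2-NA, and 812 and 929 TPM in untreated ZH11. Treated lay below untreated in both genotypes, by little in OE1. Its log2 fold was -0.12 ± 0.27 in OE1 and -0.64 ± 0.27 in ZH11 (limma adjusted p = 1 and 0.387).

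Of 3 genes for P2, LOC_Os02g32760 was the lowest in level and had 22.6 and 28.3 TPM in OE1 with 2-NA, 26.2 and 29.1 TPM in untreated OE1, 17.3 and 9.56 TPM in ZH11 with 2-NA, and 28.0 and 37.5 TPM in untreated ZH11. The treated ZH11 libraries lay below all 6 others. Its log2 fold was -0.12 ± 0.28 in OE1 and -1.27 ± 0.28 in ZH11 (limma adjusted p = 1 and 0.150). The other two, LOC_Os01g09510 and LOC_Os05g37330, had log2 folds of -0.15 ± 0.20 and -0.12 ± 0.24 in OE1 and of -0.86 ± 0.20 and -0.56 ± 0.24 in ZH11.

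Of the P3 genes, LOC_Os01g13080 had 81.5 and 98.7 TPM in OE1 with 2-NA, 83.2 and 75.4 TPM in untreated OE1, 64.8 and 15.9 TPM in ZH11 with 2-NA, and 84.5 and 88.6 TPM in untreated ZH11. Its low value in ZH11 rests largely on the treated replicate 2, and the log2 fold of -1.39 ± 0.53 there had a limma adjusted p of 0.360. The other P3 gene, LOC_Os06g48780, had 208 and 243 TPM in OE1 with 2-NA, 236 and 226 TPM in untreated OE1, 183 and 79.4 TPM in ZH11 with 2-NA, and 212 and 287 TPM in untreated ZH11, with the treated ZH11 libraries again below all others.

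P0 anchors the stalk to the ribosome. The leading P0 gene, LOC_Os08g03640, had 418 and 385 TPM in OE1 with 2-NA, 462 and 419 TPM in untreated OE1, 347 and 502 TPM in ZH11 with 2-NA, and 376 and 413 TPM in untreated ZH11. LOC_Os12g03880 had 26.9 and 24.7 TPM in OE1 with 2-NA, 29.97 and 26.1 TPM in untreated OE1, 23.0 and 30.7 TPM in ZH11 with 2-NA, and 29.0 and 24.0 TPM in untreated ZH11. For both, the ZH11 groups overlapped and the treated replicate 2 held the highest ZH11 value. The remaining P0 gene, LOC_Os11g04070, had 7.71 and 8.58 TPM in OE1 with 2-NA, 7.70 and 8.38 TPM in untreated OE1, 5.43 and 5.95 TPM in ZH11 with 2-NA, and 9.08 and 10.8 TPM in untreated ZH11. Its treated ZH11 libraries lay below all others (log2 fold in ZH11 -0.71 ± 0.17, limma adjusted p = 0.177). The P0 genes are 1121 to 1272 nt long and the P1, P2 and P3 genes 687 to 886 nt, and the part of length in these values was not tested.

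In OE1, the large-subunit row with the lowest adjusted p was 1 of the L18a-like genes. LOC_Os01g47680 had 14.6 and 15.1 TPM in OE1 with 2-NA, 7.66 and 8.90 TPM in untreated OE1, 9.67 and 8.37 TPM in ZH11 with 2-NA, and 10.02 and 8.79 TPM in untreated ZH11. The treated OE1 libraries lay above all 6 others. The log2 fold was 0.78 ± 0.17 in OE1 (limma adjusted p = 0.142) and -0.05 ± 0.17 in ZH11 (limma adjusted p = 0.891), with a difference of 0.83 ± 0.23 (limma adjusted p = 0.558). Fitted on the 4 OE1 libraries alone, with library weights or with the length curve taken out, the adjusted p in OE1 was 0.0182, 0.0058 and 0.0414. Those settings called 7.46%, 8.90% and 1.13% of all tested genes in OE1, against 0.241% in the fit of all 8 libraries.

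An L18a gene with a nearby locus number, LOC_Os01g47660, had 164 and 188 TPM in OE1 with 2-NA, 188 and 185 TPM in untreated OE1, 158 and 211 TPM in ZH11 with 2-NA, and 179 and 172 TPM in untreated ZH11, with overlap in both genotypes. A second such pair lies on chromosome 5. Its L18a-like gene, LOC_Os05g49020, named here after its values were seen, had 95.2 and 103 TPM in OE1 with 2-NA, 74.7 and 79.7 TPM in untreated OE1, 101 and 85.7 TPM in ZH11 with 2-NA, and 81.9 and 55.5 TPM in untreated ZH11, so treated lay above untreated in both genotypes (log2 fold 0.36 ± 0.20 and 0.46 ± 0.20, limma adjusted p = 0.727 and 0.401). It was the only member of the 126 with both treated libraries above both untreated ones in each genotype, as 6.38% of all tested genes had, whereas 37 members had both treated libraries below in each, as 8.5% of all tested genes had. Its neighbour LOC_Os05g49030, for L18a, had log2 folds of -0.07 ± 0.13 in OE1 and -0.20 ± 0.13 in ZH11.

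In ZH11 the only other member with both treated libraries above both untreated ones, as 15.9% of all tested genes had, was LOC_Os03g54860, the single L13a gene found, named here after its values were seen. It had 7.01 and 7.69 TPM in OE1 with 2-NA, 6.85 and 7.32 TPM in untreated OE1, 12.2 and 8.44 TPM in ZH11 with 2-NA, and 4.37 and 6.16 TPM in untreated ZH11. The log2 fold was 0.05 ± 0.23 in OE1 (limma adjusted p = 1) and 0.85 ± 0.23 in ZH11 (limma adjusted p = 0.212).

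L39, a small protein of the exit tunnel wall, is encoded by LOC_Os06g08320 over 154 nt. It had 292 and 278 TPM in OE1 with 2-NA, 418 and 386 TPM in untreated OE1, 357 and 338 TPM in ZH11 with 2-NA, and 411 and 180 TPM in untreated ZH11. OE1 values were lower with 2-NA (log2 fold -0.49 ± 0.33, limma adjusted p = 0.841), and the ZH11 groups overlapped, with a replicate difference in untreated ZH11 larger than any group difference. Fitted on the 4 OE1 libraries alone, which called 7.46% of all tested genes, its adjusted p was 0.0154.

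The S17 gene LOC_Os03g01900 was lower with 2-NA in both genotypes. It had 53.8 and 53.6 TPM in OE1 with 2-NA, 71.7 and 66.7 TPM in untreated OE1, 44.4 and 37.5 TPM in ZH11 with 2-NA, and 55.1 and 65.4 TPM in untreated ZH11. No treated library reached an untreated one of its genotype. The log2 fold was -0.36 ± 0.15 in OE1 (limma adjusted p = 0.525, and 0.0498 on the 4 OE1 libraries alone, where 7.46% of all tested genes were called) and -0.54 ± 0.15 in ZH11 (limma adjusted p = 0.229).

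**Figure D5:**
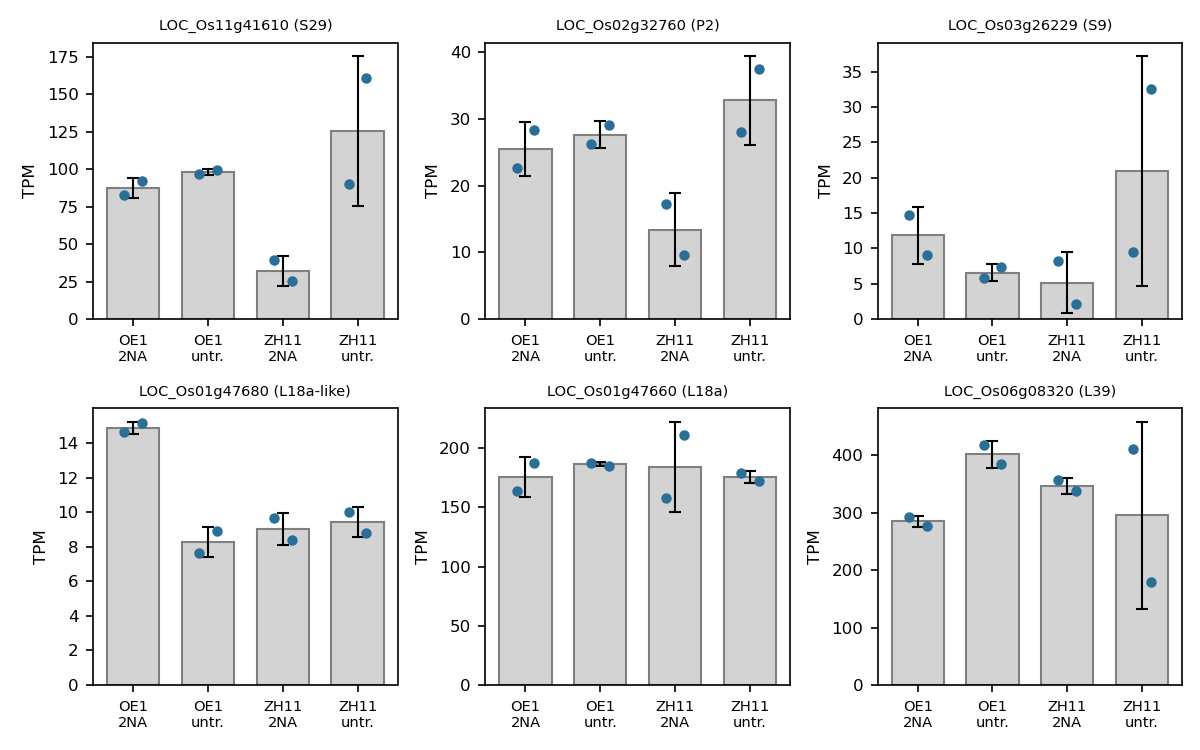
TPM (y axis, from 0) of 6 ribosomal protein genes in the 4 groups, with both libraries as points, the mean as a bar and the SD as an error bar (n = 2). S29 and P2 are low in both ZH11 libraries with 2-NA, and the L18a-like LOC_Os01g47680 is high in both OE1 libraries with 2-NA (14.6 and 15.1 TPM). Its neighbour LOC_Os01g47660 overlaps between treated and untreated in both genotypes, with 158 and 211 TPM in ZH11 with 2-NA.

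Among members that differed most between the untreated genotypes, the L28 gene LOC_Os01g51020 had 8.85 and 10.3 TPM in OE1 with 2-NA, 9.25 and 8.22 TPM in untreated OE1, 7.20 and 5.59 TPM in ZH11 with 2-NA, and 14.3 and 10.97 TPM in untreated ZH11. Untreated ZH11 held its highest values and treated ZH11 its lowest, and untreated OE1 minus untreated ZH11 was -0.48 ± 0.20 (limma adjusted p = 1).

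A second L44 gene, LOC_Os07g33915, close in locus number to the leading L44 gene and 189 nt long, had 13.4 and 7.05 TPM in OE1 with 2-NA, 7.69 and 8.62 TPM in untreated OE1, 2.88 and 0 TPM in ZH11 with 2-NA, and 7.56 and 1.58 TPM in untreated ZH11. It is the 1 member under 1 TPM in any library. A fold against ZH11 with 2-NA is not given, since 1 library there is listed at 0. The S27 gene LOC_Os04g32710, of 138 nt, had 358 and 406 TPM in OE1 with 2-NA, 409 and 508 TPM in untreated OE1, 472 and 237 TPM in ZH11 with 2-NA, and 352 and 346 TPM in untreated ZH11. Its treated ZH11 replicates enclosed both untreated values.

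Within families, the share of a family's TPM held by its leading gene differed little in the median family and by more in some. Over the 43 families with at least 2 genes, the median absolute difference in that share was 1.75 percentage points with 2-NA in ZH11, 1.14 with 2-NA in OE1, 1.43 between untreated genotypes and 1.95 between treated genotypes. Groups did not overlap for 16, 29, 21 and 15 of the 43 families. No share over other gene families was computed, so these counts have no reference value. With 2-NA in OE1, where that count was highest, the differences in share ran from -3.44 to 5.38 points. With 2-NA in ZH11 the leading share was 10.5 points higher for L21 (LOC_Os10g32820), 8.87 points higher for S27 (LOC_Os04g32710) and 7.11 points higher for L35a (LOC_Os02g54470), all without overlap. Among families whose groups overlapped, it was 10.2 points higher for L39 (LOC_Os06g08320), 8.67 points higher for L29 (LOC_Os05g28750) and 8.51 points lower for L23a (LOC_Os04g42270).

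For L21, LOC_Os10g32820 held 54.5% and 52.8% in OE1 with 2-NA, 53.7% and 53.5% in untreated OE1, 56.7% and 71.6% in ZH11 with 2-NA, and 55.8% and 51.5% in untreated ZH11. The high share of 71.6% was that of the treated replicate 2 alone. For L23a, LOC_Os04g42270 held 53.5% and 53.2% in OE1 with 2-NA, 53.6% and 54.98% in untreated OE1, 48.6% and 36.8% in ZH11 with 2-NA, and 54.1% and 48.3% in untreated ZH11, the lowest again in that library. For L22, LOC_Os07g47710 held 51.2% and 53.6% in OE1 with 2-NA, against 47.3% and 46.7% in untreated OE1, and 51.8% and 49.8% in ZH11 with 2-NA, against 51.1% and 51.5% in untreated ZH11. For S27, LOC_Os04g32710 held 59.2% and 60.1% in OE1 with 2-NA, 62.2% and 63.9% in untreated OE1, 67.8% and 67.6% in ZH11 with 2-NA, and 56.8% and 60.8% in untreated ZH11, high in both treated ZH11 libraries. With 2-NA in OE1 the leading shares of S23 (LOC_Os01g61814) and S24 (LOC_Os06g36160) were 3.87 and 3.45 points higher. Family members are often near-identical in coding sequence, and how the authors divided reads among such copies is not given in the sources used here, so shares and single-gene levels within a family are uncertain.

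Other genes of translation, taken as lists by description, are set beside the members by their counts and medians; none of them was called in any comparison by limma. The 88 further genes with KEGG names of eukaryotic ribosomal proteins had a median log2 fold with 2-NA of -0.04 in OE1, with 62 of 88 below 0, and of -0.31 in ZH11, with 72 of 88 below 0. They had a median of 0.03 between untreated genotypes and of 0.33 between treated genotypes, where 51 of 88 had both OE1 libraries above both ZH11 libraries, as 23% of all tested genes had. The 47 organelle ribosomal proteins, of the bacterial type used by plastids and mitochondria, had medians of -0.10 with 2-NA in OE1 and -0.31 in ZH11, and of -0.02 and 0.04 between untreated and treated genotypes.

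Genes that work with ribosomes are given beside the members, and the differences from them were not tested. The 18 ribosome assembly factors had medians of 0.02 with 2-NA in OE1 and -0.10 in ZH11. The 37 initiation factors, which load the small subunit on messages, had medians of -0.08 in OE1 and 0.03 in ZH11. The 3 elongation factor genes found by wording had medians of -0.08 in OE1 and -0.10 in ZH11. That wording left out rows named Tu, Ts, G or P, so further cytosolic elongation factor genes can lie outside it. Of the genes for RACK1, a scaffold protein bound to the small subunit, LOC_Os01g49290 had 168 and 171 TPM in OE1 with 2-NA, 191 and 182 TPM in untreated OE1, 125 and 198 TPM in ZH11 with 2-NA, and 173 and 170 TPM in untreated ZH11, and LOC_Os05g47890 had log2 folds of -0.06 in OE1 and 0.03 in ZH11. In the treated ZH11 replicate 2, where ribosomal protein genes were lowest, RACK1, initiation and assembly factors were at their highest summed TPM of all 8 libraries. In replicate 1 of the same group, RACK1 and assembly factors were at their lowest, at 187 and 571 TPM, and initiation factors had 3169 TPM. All tested genes over 1000 nt also had a median deviation of 0.17 in the treated replicate 2, and the part of length was not tested.

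Markers of tissue content are given beside the members, with 0 of them called in any comparison by limma. The 21 shoot markers had median log2 folds with 2-NA of -0.29 in OE1 and -0.50 in ZH11, summing in ZH11 to 55151 and 47712 TPM in ZH11 with 2-NA, against 64007 and 63927 TPM in untreated ZH11. The 4 root markers had medians of -0.72 in OE1 and 0.11 in ZH11, summing in OE1 to 397 and 344 TPM in OE1 with 2-NA, against 586 and 599 TPM in untreated OE1. Their sums in ZH11 were 340 and 391 TPM with 2-NA and 377 and 339 TPM untreated. Between untreated genotypes their median log2 fold, OE1 minus ZH11, was 0.61. All 4 had both untreated OE1 libraries above both untreated ZH11 libraries, as 21.7% of all tested genes had. The 10 genes of dividing cells had medians of -0.22 in OE1 and -0.42 in ZH11, with a sum of 51.0 TPM in the treated ZH11 replicate 1 and of 77.8 to 94.4 TPM in the other 7 libraries. None of these markers was at 0 in any library, and their part in the ribosomal protein values was not tested.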

How the data were processed

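RNA from 8 pools (4 groups of 2) was sequenced with a mRNA library kit, per the labels' protocols. The authors deposited gene levels in TPM. Cufflinks 2.2.1 is named in the submitters' processing notes; aligner, quantifier and genome build are not given in the sources used here. The authors also deposited counts of trimmed reads and bases, the percent GC, gene lengths, and tables of called genes with log2 fold changes and adjusted p-values, in which 0 members occur. TPM keeps no read counts, so the depth behind each level is unknown.

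The 25281 genes that reached 1 TPM in 2 or more libraries were tested with limma 3.58.1 (R 4.3.3) on log2(TPM + 1), with 4 group means over all 8 libraries, a mean-variance trend and Benjamini-Hochberg adjustment over all tested genes. A pseudocount of 1 understates the fold of low genes. Members were called at an adjusted p under 0.05, alone or with a fold of 1 or more in either direction on the log2 scale. The fit was tested on simulated data with the same spread in every group and changed genes only in OE1 with 2-NA. That test does not cover the unequal replicate spread or the length slope of these libraries. edgeR 4.0.16 gave scaling factors for 1 alternative and no test. The members, gene lists and tests were chosen with earlier results of these data known. Genes named in the text are the 4 most abundant members per subunit, up to 3 called members per subunit and direction or otherwise the 2 with the largest fold without overlap, all stalk genes, and leading genes whose share of a family shifted most. LOC_Os01g47660, LOC_Os01g54870, LOC_Os05g49020, LOC_Os05g49030, LOC_Os05g28750 and LOC_Os03g54860 fall outside this rule and were named after their values were seen. The alternatives were other pseudocounts, filters, scalings, a length curve, a read-length term, weights, no trend, fits on 4 libraries, a replicate block, and leaving out each library.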

Additional observations from a re-analysis of the deposited data

Results flagged for a closer look

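One gene met a rule for a closer look. The S9 gene LOC_Os03g26229 had every treated library above both untreated ones in OE1 (14.7 and 9.02 against 5.74 and 7.40 TPM) and every treated library below both untreated ones in ZH11 (8.19 and 2.14 against 9.47 and 32.5 TPM). The difference of the treatment effects, OE1 minus ZH11, was 2.54 ± 0.91 on the log2(TPM + 1) scale, with an adjusted p of 0.676 by limma, so it did not pass the test. Of the 126 members 2 had such opposite layouts, against 4.81% of all tested genes. The other, the L18a gene LOC_Os01g54870, had smaller steps, at 228 and 233 TPM in OE1 with 2-NA, 225 and 214 TPM in untreated OE1, 197 and 175 TPM in ZH11 with 2-NA, and 206 and 213 TPM in untreated ZH11, for a difference of 0.25 ± 0.18 (limma adjusted p = 0.805).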

How the results depend on the processing

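Counts of called members were 0 under nearly all settings, TMM and median-of-ratios scaling included. The exceptions for 2-NA in OE1 were 2 large members (LOC_Os01g47680 higher, LOC_Os06g08320 lower) and 1 small member (LOC_Os03g01900, lower) on 4 libraries, LOC_Os01g47680 alone (1 large) with the length curve removed, and 1 large and 1 small (LOC_Os01g47680, LOC_Os03g01900) with library weights. These settings called 7.46%, 1.13% and 8.90% of all tested genes in OE1. In ZH11 the read-length term called 1 small member, LOC_Os11g41610, and 1.15% of all tested genes. Leaving out 1 library at a time gave 0 to 56 large and 0 to 33 small members for 2-NA in ZH11, 0 to 1 (LOC_Os01g47680, where 3.35% to 3.37% of all tested genes were called) and 0 in OE1, 0 for untreated genotypes, 0 to 55 and 0 to 34 for treated genotypes, and 0 to 41 and 0 to 20 for the difference; every count above 1 came without replicate 1 of treated ZH11, where 32.0% (ZH11), 40.8% (treated genotypes) and 19.6% (difference) of all tested genes were called. The medians then ran from -0.70 to -0.21 (large) and -0.54 to -0.18 (small) in ZH11, -0.12 to 0.011 and -0.14 to -0.04 in OE1, 0.012 to 0.049 and 0.02 to 0.07 for untreated genotypes, 0.18 to 0.67 and 0.16 to 0.48 for treated genotypes, and 0.15 to 0.64 and 0.10 to 0.36 for the difference.

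With the length curve removed, medians moved to -0.0015 (large) and -0.027 (small) for untreated genotypes, 0.094 (small) for treated genotypes, and 0.22 (large) and 0.055 (small) for the difference. The read-length term gave -0.11 (large) and -0.018 (small) for untreated genotypes. The cause was not tested. Summed TPM moved in the treated ZH11 replicate 2, to 13832 (large) and 10928 (small) with the length curve removed and 7805 (small) with TMM scaling, and to 11353 (small) with the curve removed in OE1 with 2-NA, replicate 2.

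Replicate numbers are shared across groups, but no label ties them to a batch. Deviations of same-numbered libraries correlated at -0.28 to 0.23, and with the replicate number as a block 0 members were called in each comparison, with medians of -0.42 and -0.35 in ZH11. Members of low level and short length carry the least precision.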
